A study of Mus musculus with 6 samples.

Results

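Voltage-gated sodium channel subunits were followed through 7 genes, Scn1a, Scn2a, Scn3a and Scn8a for the pore and Scn2b, Scn3b and Scn4b for its partners. They were matched by gene name among the 33182 genes of the deposited count and FPKM table. All 7 were found, with 1 row each, and all 7 passed the filter on low values that left 15740 genes for testing.

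Voltage-gated sodium channels carry the inward current that starts and propagates the action potential. Each channel is built around a large alpha subunit that forms the pore, and beta subunits, which are small membrane proteins with an immunoglobulin-like domain, bind to it and alter its gating, surface density and placement. In neurons the channels are concentrated at the axon initial segment and at the nodes of Ranvier. In the mouse cortex Scn1a is used heavily by parvalbumin interneurons, Scn2a and Scn8a by excitatory neurons, and Scn3a mainly before birth. Altered sodium currents and hyperexcitability of cortical motor neurons are known from work on the SOD1G93A mouse.

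The RNA came from motor cortex of SOD1G93A mice, whose transgene encodes a mutant human SOD1 and which serve as a model of amyotrophic lateral sclerosis. At day 120 there were 3 control libraries and 3 libraries from mice given ultrasound, which the series title names low-intensity pulsed ultrasound. Both groups carry the transgene, so the comparison is of treatment within the disease model, and libraries without the transgene were not analysed here. Not given in the sources used here are the promoter of the transgene and the age at which treatment began. The labels do not state that every library is from its own animal, and p-values therefore reflect library-to-library spread, which may be technical.

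The libraries held between 38202541 and 60088636 counts, and the lowest count of any of the 7 genes in any library was 972. Counting error was therefore small, at most 3.21% of a value, and the spread between libraries set the precision. The labelled tissue was checked with 13 lists of cell type markers. Summed FPKM of the excitatory cortical neuron list was 870 to 1361, and that of the pan-neuronal list 710 to 909. Some libraries stood apart by markers of neighbouring tissue. Olfactory bulb markers summed to 52.4 in control 3 against at most 3.13 elsewhere, and choroid plexus markers to 241 in ultrasound 3 against at most 13.7. Markers of immature neurons summed to 15.6 in control 3 and to between 6.13 and 7.15 in the others. Between the groups, summed levels overlapped for GABAergic interneurons (282 to 344, then 267 to 331 with ultrasound), astrocytes (294 to 369 and 341 to 441), oligodendrocytes (253 to 331 and 226 to 415), microglia (57.7 to 81.0 and 66.1 to 79.2) and endothelium (16.2 to 28.1 and 15.2 to 21.9). Oligodendrocyte precursor markers summed to 11.2 to 19.3 in controls and 19.1 to 23.7 after ultrasound. Ribosomal 18S RNA took 0.561% to 9.18% of counts, with the highest share in ultrasound 2.

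The promoters of Scn1a, Scn2b and Scn4b, the members that varied most between libraries, are shown because Scn2b and Scn4b lie side by side and yet differ strongly in CG content. In the deposited table Scn2b and Scn4b are on the same strand of chromosome 9 with 8.32 kb between them and no gene in the gap. The windows are from RefSeq on GRCm38.p6, each with 250 bases before and 50 after the gene start, and CG dinucleotides are in capitals. Scn1a is read on the minus strand of chr2:66440788-66441087, and Scn2b and Scn4b on the plus strand of chr9:45117626-45117925 and chr9:45138374-45138673.
Scn1a: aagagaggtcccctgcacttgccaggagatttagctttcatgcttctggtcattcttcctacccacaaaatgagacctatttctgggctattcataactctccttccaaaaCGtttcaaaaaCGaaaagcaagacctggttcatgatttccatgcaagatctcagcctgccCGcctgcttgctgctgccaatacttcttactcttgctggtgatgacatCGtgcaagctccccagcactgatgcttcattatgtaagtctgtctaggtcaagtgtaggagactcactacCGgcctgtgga
Scn2b: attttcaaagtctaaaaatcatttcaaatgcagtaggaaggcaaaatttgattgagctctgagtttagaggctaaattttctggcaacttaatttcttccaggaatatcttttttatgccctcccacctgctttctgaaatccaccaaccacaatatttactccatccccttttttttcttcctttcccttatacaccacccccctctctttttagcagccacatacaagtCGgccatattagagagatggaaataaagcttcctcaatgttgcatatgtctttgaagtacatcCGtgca
Scn4b: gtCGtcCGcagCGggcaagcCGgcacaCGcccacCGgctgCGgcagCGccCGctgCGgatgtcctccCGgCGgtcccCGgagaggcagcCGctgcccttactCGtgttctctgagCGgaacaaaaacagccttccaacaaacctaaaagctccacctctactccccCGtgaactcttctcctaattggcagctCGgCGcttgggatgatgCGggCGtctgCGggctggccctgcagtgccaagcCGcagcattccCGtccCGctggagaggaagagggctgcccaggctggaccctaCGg
The Scn4b window held 26 CG dinucleotides and 66.3% G and C, and 83.1% of 32851 promoter windows held fewer CG. The Scn2b window held 2 CG and 38.3% G and C, with 14.1% of windows holding fewer, and the Scn1a window held 5 CG and 47.3% G and C, with 38.0% holding fewer. The median window held 7. RefSeq windows matched 5 of the 7 genes, with 7 windows in all, and of those not shown the first Scn8a window was the richest, with 38 CG. Both strands of all 7 windows were searched for 4 motifs. The left part of the REST site, TTCAGCACC, was in 0 of 7 windows and in 0.371% of all windows, and the core of its right part, GGACAGC, was in 0 of 7 and in 6.56%. The E-box CACGTG was in 0 of 7 and in 7.15%, and the TATA motif TATAAA was in 1 of 7, a window of Scn2a, and in 13.6% of all. These are matches of letters within the windows only.

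Per transcript length the beta genes Scn2b and Scn4b had the highest FPKM levels of the 7 and Scn3a the lowest in 5 of 6 libraries. Over all 6 libraries the mean FPKM level was 43.7 for Scn2b and 38.1 for Scn4b, then 17.2 for Scn2a, 13.4 for Scn8a, 9.9997 for Scn1a, 6.43 for Scn3b and 3.03 for Scn3a. The order of neighbours was only partly stable. Scn2b was above Scn4b in 4 libraries and below it in ultrasound 2 and ultrasound 3. Scn2a was above Scn8a in 5 of 6 libraries and Scn8a above Scn1a in 4 of 6, and differences in level between members were not tested. Scn3b was above Scn3a in 6 of 6 libraries. In ultrasound 3, Scn1a was the lowest of the 7.

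**Figure D1:**
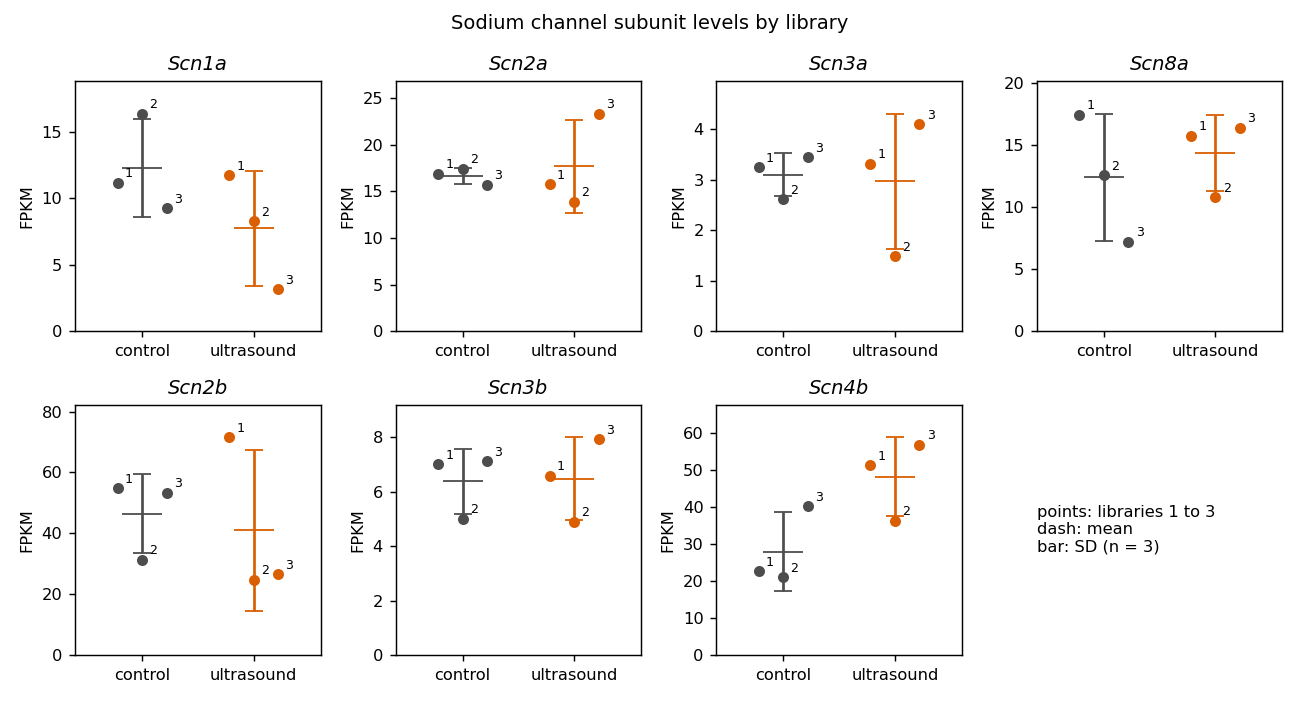
FPKM level of each of the 7 sodium channel subunit genes in the 3 control and 3 ultrasound libraries, 1 point per library with the group mean. The groups overlap for all 7 genes, and the widest fold range, 5.15, is that of Scn1a, from 3.18 to 16.4.

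No sodium channel subunit gene passed the test between ultrasound and control. In edgeR's quasi-likelihood test with Benjamini-Hochberg adjustment over 15740 genes, 0 of 7 had an adjusted p under 0.05, against 0.00635% of all tested genes, which is 1 gene. DESeq2 called 0 of 7, against 0.185% of all genes, and limma called 0 of 7. At an unadjusted p under 0.05 the edgeR test kept 1 of 7, Scn4b, against 4.77% of all genes. By direction this was 1 of 7 higher against 2.45% of all genes and 0 of 7 lower against 2.32%. The FPKM ranges of the groups overlapped for 7 of 7 members, while they did not overlap for 10.8% of all genes. The log2 fold change was above 0 for 4 members and below 0 for 3, with a median of 0.05 beside -0.01 over all tested genes.

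**Figure D2:**
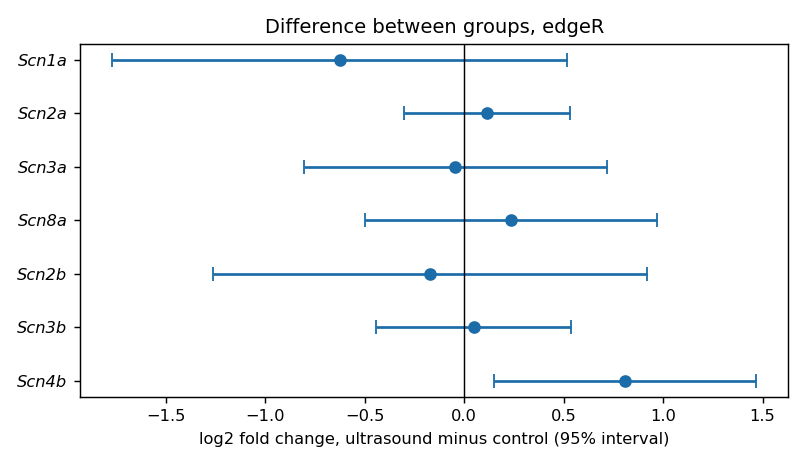
Log2 fold change, ultrasound minus control, of each member from edgeR's fit with its 95% interval. The interval of Scn4b, from 0.15 to 1.47, lies above 0, and those of the other members include 0.

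Among the alpha genes, Scn1a had the widest spread. The controls, in the order of their numbers, had FPKM levels of 11.2, 16.4 and 9.27, and the ultrasound libraries 11.7, 8.29 and 3.18. The mean was 12.3 ± 3.67 in controls and 7.73 ± 4.30 after ultrasound (SD, n = 3 each). Ultrasound 3 was far below the rest, while ultrasound 1 was above 2 of the 3 controls. The log2 fold change was -0.62 (SE 0.47, 95% interval -1.77 to 0.52, edgeR adjusted p = 0.976). It was -0.25 without ultrasound 3 and -1.002 without ultrasound 1, so single libraries changed its size by over 1.5 times. Ultrasound 3 is also the library with the choroid plexus markers. The summed FPKM level of the 4 listed was 3.59, 2.17 and 7.65 in controls and 8.49, 13.7 and 241 after ultrasound, of which Ttr made up 235 in ultrasound 3. Clic6, the next highest of the list, was instead highest in control 3, at 3.49 against 3.23 in ultrasound 3. Over the 6 libraries, Pearson's r of Scn1a was -0.96 with the median of the choroid plexus list and -0.89 with that of 6 astrocyte markers. These were the largest in size of 13 marker lists, with oligodendrocyte precursors next at -0.81 and the pan-neuronal list at 0.78. The r values are a description, and the part of any list in the Scn1a result was not tested. Astrocyte markers summed to 369, 294 and 326 in controls and 365, 341 and 441 after ultrasound. In this bulk tissue, fewer cells of a type and less RNA per cell cannot be told apart.

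Scn1a was set beside markers of the interneurons that use it. Pvalb, the calcium-binding protein that gives parvalbumin interneurons their name, was at FPKM 35.3, 80.5 and 16.2 in controls and 55.6, 31.6 and 17.0 after ultrasound. Both genes were highest in control 2 and low in ultrasound 3, but Pvalb was as low in control 3, where Scn1a stood at 9.27. The ratio of Scn1a to Pvalb FPKM ran from 0.187 in ultrasound 3 to 0.571 in control 3, a 3.06-fold range. Sst, a peptide of another interneuron class, stayed between 132 and 171, and Gad1, which makes GABA, was 36.2, 45.9 and 81.0 in controls and 45.2, 32.1 and 45.7 after ultrasound. Pvalb and these ratios were picked after their values were seen, and their part in the Scn1a result was not tested.

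Scn2a, the alpha gene of the initial segment of young excitatory axons, was the steadiest of the 4. Its FPKM level was 16.9, 17.4 and 15.7 in controls and 15.8, 13.9 and 23.3 after ultrasound. Ultrasound 3 stood above the other 5, which lay between 13.9 and 17.4. Between groups the log2 fold change was 0.12 (SE 0.18, 95% interval -0.30 to 0.53, edgeR adjusted p = 0.983), and it turned to -0.12 without ultrasound 3.

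Scn8a encodes the alpha subunit that dominates mature initial segments and nodes. Its FPKM level was 17.5, 12.6 and 7.22 in controls and 15.8, 10.8 and 16.4 after ultrasound. Control 3 was the lowest of the 6 and control 1 the highest, so the ultrasound libraries fell within the control range. The log2 fold change was 0.24 (SE 0.31, 95% interval -0.50 to 0.97, edgeR adjusted p = 0.981), and without control 3 it was -0.03.

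Scn3a, the alpha gene of the immature brain, was low throughout. In FPKM, Scn3a was at 3.24, 2.62 and 3.44 in controls and 3.32, 1.49 and 4.10 after ultrasound. The ultrasound group held both the lowest and the highest library. Its log2 fold change was -0.04 (SE 0.32, 95% interval -0.81 to 0.72, edgeR adjusted p = 0.997), and it was 0.25 without ultrasound 2 and 0.04 without control 3.

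Expressed as shares of the summed FPKM level of the 4 alpha members, the mix of pore subunits varied within both groups. Scn2a held 34.7%, 35.5% and 44.1% in controls and 33.9%, 40.3% and 49.6% after ultrasound. Scn8a held 35.8%, 25.7% and 20.3% in controls and 33.9%, 31.4% and 34.9% after ultrasound. Scn1a held 22.9%, 33.4% and 25.998% in controls and 25.2%, 24.0% and 6.75% after ultrasound. Scn3a held 4.31% to 9.65% in the 6 libraries. The sum itself was 44.5 ± 7.64 in controls and 42.7 ± 7.12 after ultrasound (SD, n = 3 each). In ultrasound 3 the lowest Scn1a share went with the highest Scn2a share.

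**Figure D3:**
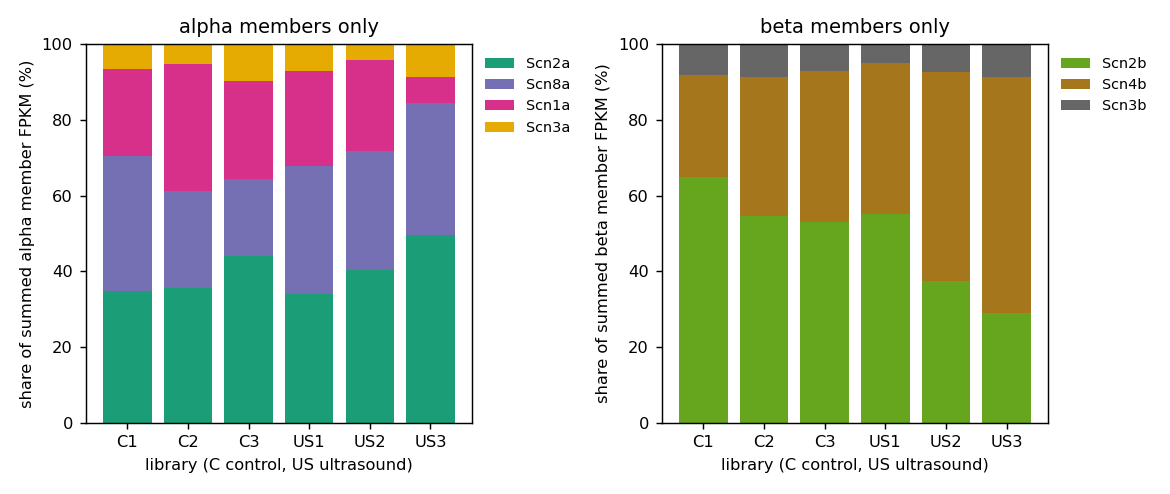
Share of each member in the summed FPKM of the 4 alpha members and of the 3 beta members, in percent, for each library. The Scn4b share of the beta sum is 26.8% to 40.03% in controls and 39.7% to 62.3% after ultrasound, and the Scn1a share of the alpha sum is lowest, at 6.75%, in ultrasound 3.

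Of the beta genes, Scn4b differed most between the groups. Scn4b encodes the subunit that supplies the blocking particle for resurgent sodium current, which lets fast-firing neurons fire again quickly, and it is abundant in striatal medium spiny neurons. Its FPKM level was 22.7, 21.0 and 40.3 in controls and 51.4, 36.3 and 57.0 after ultrasound. Control 3 lay above ultrasound 2, so the groups overlapped. The mean was 28.0 ± 10.7 in controls and 48.2 ± 10.7 after ultrasound (SD, n = 3 each). The log2 fold change was 0.81 (SE 0.28, 95% interval 0.15 to 1.47), with an edgeR unadjusted p of 0.0225 and an adjusted p of 0.973, and 316 of the 15740 genes had a smaller p. The difference kept its direction in 16 of 16 alternatives and passed the adjusted threshold in none, with adjusted p from 0.233 to 0.998. The unadjusted edgeR p rose above 0.05 when control 1, control 2, ultrasound 1 or ultrasound 3 was left out, and the log2 fold change was 1.18 without control 3.

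Markers of striatal medium spiny neurons moved in part with Scn4b. The summed FPKM level of 10 such markers was 334.8, 180.6 and 655 in controls and 416, 410 and 668 after ultrasound. All 10 had a log2 fold change above 0, from 0.15 to 1.13 with a median of 0.42. In edgeR 0 of 10 had an adjusted or unadjusted p under 0.05, against 0.00635% and 4.77% of all genes. Ppp1r1b, the dopamine-regulated phosphatase inhibitor DARPP-32, was at FPKM 106, 58.3 and 181 in controls and 129, 138 and 192 after ultrasound. Penk, which encodes enkephalin precursor, was at 89.8, 28.7 and 210 in controls and 94.3, 94.9 and 169 after ultrasound. Both were high in control 3 and in ultrasound 3, where Scn4b was the highest of its group, and both were low in control 2, where Scn4b was lowest. The ratio of Scn4b to Ppp1r1b FPKM spanned 0.214 to 0.398, a 1.87-fold range, against 2.72-fold for Scn4b itself. This ratio was chosen after the values were seen. The match was incomplete, as control 3 had Penk at 210 and Scn4b at 40.3, and ultrasound 1 had Penk at 94.3 and Scn4b at 51.4. Layer 5 projection neuron markers, some of which striatal neurons also express, summed to 179, 201 and 301 in controls and 272, 253 and 245 after ultrasound. Of these 6 genes, 6 had a log2 fold change above 0 and 0 passed the adjusted threshold in edgeR. An unadjusted edgeR p under 0.05 was found for 2, both higher, against 2.45% of all genes in that direction. They were Etv1 at a log2 fold change of 0.60 (SE 0.23) and Ldb2 at 1.29 (SE 0.41), named after their values were seen. Ldb2 FPKM was 3.69 in ultrasound 2, below 3.78 and 4.23 in controls 1 and 2. As a description over the 6 libraries, Pearson's r of Scn4b was 0.90 with the median of the layer 5 list and 0.87 with that of the striatal list. These were the largest of 13 marker lists, with choroid plexus next at 0.79. The part of any of these cell types in the Scn4b result was not tested. With control 3 and ultrasound 3 both left out, the Scn4b log2 fold change was 1.06 (edgeR adjusted p = 0.344).

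**Figure D4:**
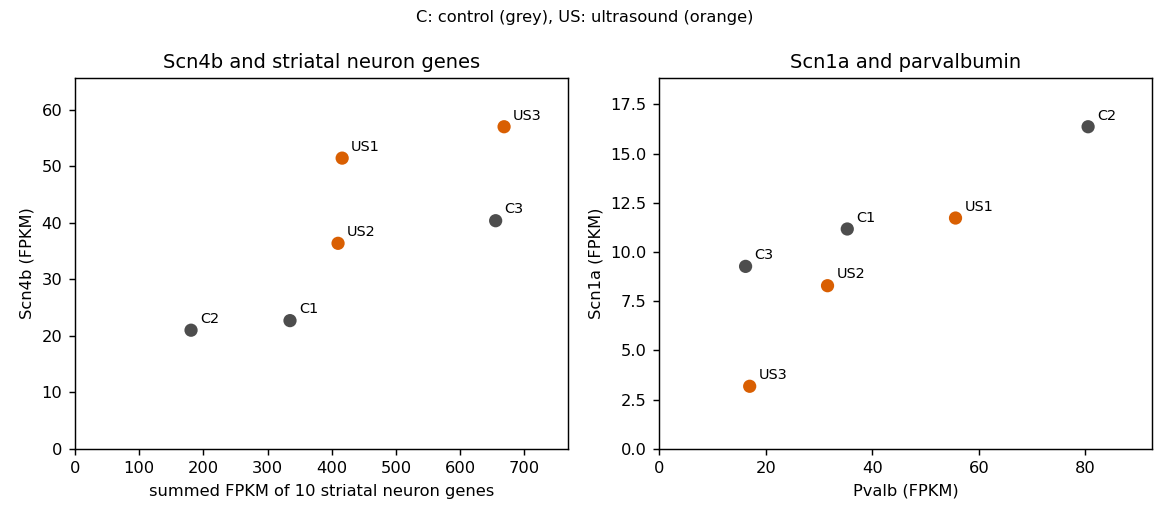
Left, Scn4b FPKM against the summed FPKM of 10 striatal neuron genes, and right, Scn1a FPKM against Pvalb FPKM, 1 point per library with controls in grey and ultrasound in orange. Scn4b is lowest in control 2, where the striatal sum is 180.6, and highest in ultrasound 3, where it is 668, and Scn1a and Pvalb are both highest in control 2.

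Scn2b, whose subunit is linked to the alpha subunit by a disulfide bond and helps bring channels to the surface, was not higher on average after ultrasound. Scn2b FPKM was 54.8, 31.3 and 53.3 in controls and 71.5, 24.8 and 26.6 after ultrasound. Ultrasound 1 was the highest of the 6 and the other ultrasound libraries were the lowest. Its log2 fold change was -0.17 (SE 0.45, 95% interval -1.26 to 0.92, edgeR adjusted p = 0.995), and it was 0.06 without ultrasound 2, 0.07 without ultrasound 3 and -0.80 without ultrasound 1. Although they are neighbours on chromosome 9, Scn2b and Scn4b had a Pearson r of log2 CPM of 0.01 over the 6 libraries, given as a description.

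Scn3b, which encodes a noncovalently bound beta subunit, varied little. Scn3b FPKM was 7.02, 5.01 and 7.12 in controls and 6.59, 4.90 and 7.94 after ultrasound. The lowest and the highest library were both in the ultrasound group. For Scn3b the log2 fold change was 0.05 (SE 0.21, 95% interval -0.44 to 0.54, edgeR adjusted p = 0.997), and it turned to -0.10 without control 2 and to -0.11 without ultrasound 3.

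Of the summed FPKM level of the 3 beta members, Scn4b held 26.8%, 36.6% and 40.03% in controls and 39.7%, 55.1% and 62.3% after ultrasound. Ultrasound 1 lay just below control 3, so these shares overlapped, and Scn3b held 5.08% to 8.73% in the 6 libraries.

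The balance of the neighbours was read as a ratio within each library, which no scaling of libraries alters. The ratio of Scn4b to Scn2b FPKM was 0.414, 0.669 and 0.757 in controls and 0.719, 1.47 and 2.14 after ultrasound. Ultrasound 1 fell below control 3 and the other ultrasound libraries were above all controls. The difference of mean log2 ratios was 1.14 (controls -0.75 ± 0.46, ultrasound 0.39 ± 0.80, SD, n = 3 each, two-sided exact permutation p = 0.2, Benjamini-Hochberg adjusted p = 0.6 over 3 ratios), where 0.1 is the smallest p that 3 against 3 can give. The ratio of Scn8a to Scn2a, which rises as axons mature, was 1.03, 0.724 and 0.459 in controls and 0.9995, 0.779 and 0.704 after ultrasound. Its groups overlapped, with a log2 difference of 0.23 (exact permutation p = 0.7, adjusted p = 0.7) that turned to -0.08 without control 3. The ratio of Scn3a to Scn2a was 0.192, 0.150 and 0.219 in controls and 0.210, 0.107 and 0.176 after ultrasound, with a log2 difference of -0.22 (exact permutation p = 0.6, adjusted p = 0.7) that turned to 0.06 without ultrasound 2.

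Of the 7 members, 5 varied more between libraries than the median gene. The coefficient of variation of TMM-scaled CPM over all 6 libraries had a median of 28.3% among members and 20.1% over all tested genes. It was 41.9% for Scn2b, 41.7% for Scn1a and 38.0% for Scn4b, and 83.0%, 82.7% and 79.9% of all genes had a smaller one. Scn2a and Scn3b, at 17.8% and 18.1%, were below the median gene. The ratio of the highest to the lowest FPKM was 5.15 for Scn1a and 1.62 for Scn3b.

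Genes that place, modify and balance these channels were read from 5 lists. Across them 49 of 52 genes were tested and 0 passed the adjusted threshold in edgeR's test, while 6 had an unadjusted p under 0.05, all higher after ultrasound, which is 12.2% beside 2.45% of all genes in that direction. These lists were chosen with earlier results of these data known, so that share is a description. Tested genes named from these lists were those of small p, so separated groups among them partly follow from that choice. Scn4a, Scn7a and Scn9a, sodium channel genes of muscle, glia and sensory neurons, were under the filter. The sodium leak channel gene Nalcn was at a log2 fold change of 0.20 (SE 0.12).

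Of 11 scaffold genes of the initial segment and node, 9 had a log2 fold change above 0 and 2 below, with a median of 0.07. Ank3, encoding ankyrin-G, which anchors the channels at the initial segment, was at FPKM 3.43, 3.78 and 3.73 in controls and 5.65, 3.83 and 6.44 after ultrasound. All ultrasound libraries were above all controls, though ultrasound 2 only narrowly, and FPKM groups did not overlap for 10.8% of all genes. The log2 fold change of Ank3 was 0.57 (SE 0.17, edgeR adjusted p = 0.973). Tnr, encoding the matrix protein tenascin-R of nodes and perineuronal nets, stood at a log2 fold change of 0.58 (SE 0.28).

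Of 15 modulators and processing enzymes, 11 had a log2 fold change above 0 and 4 below, with a median of 0.10. In edgeR 3 had an unadjusted p under 0.05, all higher, against 2.45% of all genes in that direction. Fgf13, an intracellular growth factor homologue that binds the channel's tail, was at FPKM 28.0, 26.7 and 21.0 in controls and 31.3, 33.1 and 34.9 after ultrasound. Its groups did not overlap, as for 10.8% of all genes, and the log2 fold change was 0.43 (SE 0.14, edgeR adjusted p = 0.973). Nedd4, a ubiquitin ligase of the family that removes sodium channels from the membrane, stood at a log2 fold change of 0.39 (SE 0.13). The protease Bace1, which cleaves beta subunits, had one of 0.49 (SE 0.18).

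Of 9 potassium channel genes of initial segments and fast-spiking cells, 5 had a log2 fold change above 0 and 4 below, with a median of 0.20. Kcnq3, a subunit of the M-current channel, was at 0.42 (SE 0.18), and Kcna1, a juxtaparanodal channel gene, at 0.48 (SE 0.25). Of 11 genes of the sodium gradient, 5 had a log2 fold change above 0 and 6 below, with a median of -0.01. Slc8a1, a sodium-calcium exchanger, was at FPKM 6.93, 6.78 and 6.07 in controls and 10.7, 8.14 and 8.37 after ultrasound. Its groups did not overlap, as for 10.8% of all genes, and the log2 fold change was 0.49 (SE 0.13, edgeR adjusted p = 0.973), with Slc8a2 at 0.30 (SE 0.13).

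The genes most like each member in pattern were found by Pearson's r of log2 CPM over the 6 libraries, among genes whose FPKM averaged 5 or more (7298 candidates for Scn4b). With so few libraries many genes reach a high r, from 15 genes over 0.9 for Scn2b to 130 for Scn8a. For Scn4b the nearest were the protocadherin Pcdhgc3 (0.98) and the microtubule protein gene Map1a (0.97). For Scn1a they were the tRNA synthetase gene Sars and the mitochondrial enzyme gene Idh3g (both 0.99), and for Scn8a Megf9 and the transcription factor gene Zbtb16 (both 0.99). For Scn2a they were Uhrf1bp1l (0.99) and Dcp2 (0.95), for Scn3a Heatr5b (0.997) and Tmem131 (0.99), for Scn2b Faf1 (0.96) and Actr10 (0.95), and for Scn3b Rcbtb1 (0.99) and Scoc (0.97).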

How the data were processed

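RNA from 6 motor cortex libraries was sequenced after oligo(dT) selection, per the labels' protocols. The authors deposited raw counts per gene and FPKM values, which are scaled to length and depth per the file headers. Per the submitters' processing notes, the tools included StringTie 1.3.4d, HISAT2 2.0.4 and cutadapt 1.9, with edgeR and DESeq2, and the build was mm10. Not given in the sources used here are the counting tool and how it treated strand and reads shared by related genes. Another 12 per-library columns were not used.

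Genes whose FPKM averaged 0.5 or more were tested on the counts with edgeR 4.0.16 (TMM scaling, robust quasi-likelihood fit, R 4.3.3), ultrasound minus control, with Benjamini-Hochberg adjustment over 15740 genes and a threshold of 0.05. The fit was tested on simulated data. DESeq2 1.42.0, limma 3.58.1 (log2 FPKM plus 0.5 or 0.1), other scalings and filters, a replicate block and left-out libraries were alternatives. Ratios of FPKM were compared by exact permutation. Over all tested genes, same-numbered libraries did not deviate together (r of -0.03, 0.01 and 0.07), so replicate numbers were not used as pairs in the main test.

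The members and lists were chosen with earlier results of these data known. The 2 genes of smallest p per pathway list and the 2 of highest FPKM per marker list could be named, the latter only where they touch a member. Some genes of the lists are not reported here by name, though the list counts and sums include them. Beta shares are over the 3 beta members alone. Genes that overlap a member held at most 0.644% of its counts. None of the 7 members had the same start and end in the table as in the GRCm38 annotation (601 of 32701 shared genes did), so only distances between genes are given from the table.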

Additional observations from a re-analysis of the deposited data

How the results depend on the processing

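In all 16 alternatives 0 of the 7 sodium channel genes passed the adjusted threshold, and the log2 fold changes of Scn1a and Scn4b kept their direction in each. Over all genes the count past the threshold was 1 in the main edgeR test, 2 without the filter on low values, 29 with DESeq2, 0 with limma at either pseudocount (762 and 756 at an unadjusted p under 0.05), 8 with control 3 and ultrasound 3 left out, and 1 to 4 with single libraries left out (4 without control 2 and 4 without control 3). The replicate block gave 1 gene and a Scn4b log2 fold change of 0.86 (SE 0.17, edgeR unadjusted p = 0.00199, adjusted p = 0.998). For Scn1a it gave -0.78 (SE 0.32, edgeR unadjusted p = 0.0543) and for Scn2b -0.28 (SE 0.27). Those SE were below the main test's, as were those of Scn3a (0.21 against 0.32), Scn3b (0.15 against 0.21) and Scn8a (0.30 against 0.31). Only that of Scn2a, 0.18 in both, was not lower. Over all genes the block left 633 with an unadjusted edgeR p under 0.05, against 751 in the main test.

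The other 5 members changed sign in 12 values in all. With single libraries left out, the log2 fold change ran from -0.12 to 0.23 for Scn2a, -0.34 to 0.25 for Scn3a, -0.0344 to 0.58 for Scn8a, -0.80 to 0.0657 for Scn2b and -0.11 to 0.18 for Scn3b. With control 3 and ultrasound 3 left out it was -0.15 for Scn2a, -0.13 for Scn8a, 0.18 for Scn2b and -0.0166 for Scn3b. The log2 ratio of Scn8a to Scn2a ran from -0.0791 to 0.51, that of Scn3a to Scn2a from -0.43 to 0.0566 and that of Scn4b to Scn2b from 0.79 to 1.58. The cause was not tested.

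Of the genes whose unadjusted p was under 0.05, 51.4% had higher levels after ultrasound in the main test, 32.8% with scaling to total counts, which shifted the median of all genes to -0.06, and 36.5% with limma. With 3 libraries per group, the spread between libraries and not depth limits these comparisons.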
